A study of Mus musculus with 24 samples.

Results

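The genes examined here encode the voltage-gated sodium and calcium channels: every gene of the deposited table whose symbol is Scn followed by digits and a or b, or starts with Cacna1, Cacnb or Cacng, with a mean above 0 over the 24 libraries. The Cacna2d genes were not members. The table lists Scn2a under its older symbol Scn2a1, which RefSeq gives as a synonym, and it was included, which made 33 members of 15232 genes (32 without it). Of these, 18 encode the pore-forming subunits through which the ions pass and 15 encode auxiliary subunits. There are 9 sodium pore genes, 4 sodium beta genes, 3 L-type (Cacna1c, Cacna1d and Cacna1s), 3 Cav2 (Cacna1a, Cacna1b and Cacna1e) and 3 T-type (Cacna1g, Cacna1h and Cacna1i) calcium pore genes, 4 calcium beta genes and 7 Cacng genes.

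As background, sodium channels open on depolarisation and carry the upstroke of the action potential, and their beta subunits set gating, surface level and cell adhesion. Calcium channels turn electrical activity into calcium entry: the L-type channels of the soma and dendrites are linked to gene transcription, the Cav2 channels trigger transmitter release at terminals, and the T-type channels open near rest and shape burst firing. Calcium beta subunits bring the pore to the membrane, whereas most Cacng proteins of the brain are TARPs, which traffic and gate AMPA-type glutamate receptors and are named for their likeness to a muscle calcium channel subunit.

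The study collected bulk poly(A) RNA from the whole anterior cingulate cortex, a frontal area used in effort-related choices, to ask what the astrocyte-secreted thrombospondins Thbs1 and Thbs2 contribute to goal-directed behaviour. The 24 mice, 1 library each, form 3 arms of 8, each with 4 females and 4 males: WT (wild type) without training, Thbs1/2 KO (knockout of both genes) without training, and Thbs1/2 KO with training. Training took place in a Skinner box, RNA was taken soon after the behaviour, and trained animals were also food deprived, so training and food deprivation cannot be told apart. Strain, age and the design of the knockout alleles are not given in the sources used here, and trained WT animals were not analysed here. In bulk tissue, fewer cells of a type and less RNA per cell cannot be told apart.

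The 2 targeted genes were higher where the labels say knockout, so libraries are called WT-labelled or KO-labelled throughout and each direction rests on the labels. Thbs1 was at 0.512 ± 0.147 FPKM (fragments per kilobase of gene, relative to library size; SD, n = 8) in the WT-labelled libraries, 3.68 ± 0.840 FPKM (SD, n = 8) in the untrained KO-labelled ones and 4.63 ± 0.690 FPKM (SD, n = 8) in the trained ones. Thbs2 was at 2.02 ± 0.294 FPKM, 3.51 ± 0.378 FPKM and 3.29 ± 0.227 FPKM across those arms (SD, n = 8). Which part of either gene the knockout removes is not given, so reads outside it would check nothing. Reads recovered from the FPKM steps summed to between 12051769 and 26675569 per library. All 8 trained animals, but only 2 untrained KO-labelled males and 1 WT-labelled male, carry an animal number over 1000. What that number stands for is not given.

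1 library stood apart in the channel genes themselves. In the male untrained KO-labelled library 3, which was also the deepest, 20 of the 33 members lay outside the range of the other 23 libraries, 11 above and 9 below. The other 23 libraries each held between 0 and 9 members at such an extreme, the most being in the trained KO-labelled male library 3, which had the lowest value of 7 members. Cacng5, a TARP-family gene, reached 20.2 FPKM in the male untrained KO-labelled library 3 against 1.495 to 3.38 FPKM elsewhere, and Scn9a, a sodium channel best known from sensory neurons, reached 1.41 FPKM against 0.0828 to 0.299 FPKM. In the other direction, Cacng3 was at 43.3 FPKM against 67.0 to 95.4 FPKM, and Cacng2 at 9.37 FPKM against 14.1 to 20.3 FPKM. Scn2a and Cacna1b, by contrast, lay inside the range of the other libraries. In the same library the mean log2(FPKM + 1) of 4 septal marker genes was 3.69, against 1.15 to 1.55 in the other 23, that of 7 cortical markers was 3.37 against 4.76 to 5.12, and that of 7 striatal markers was 5.65 against 2.497 to 4.90. The part of neighbouring tissue in these channel values was not tested. The arm values below include this library, and counts and named genes that moved most without it are also given without it.

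**Figure D1:**
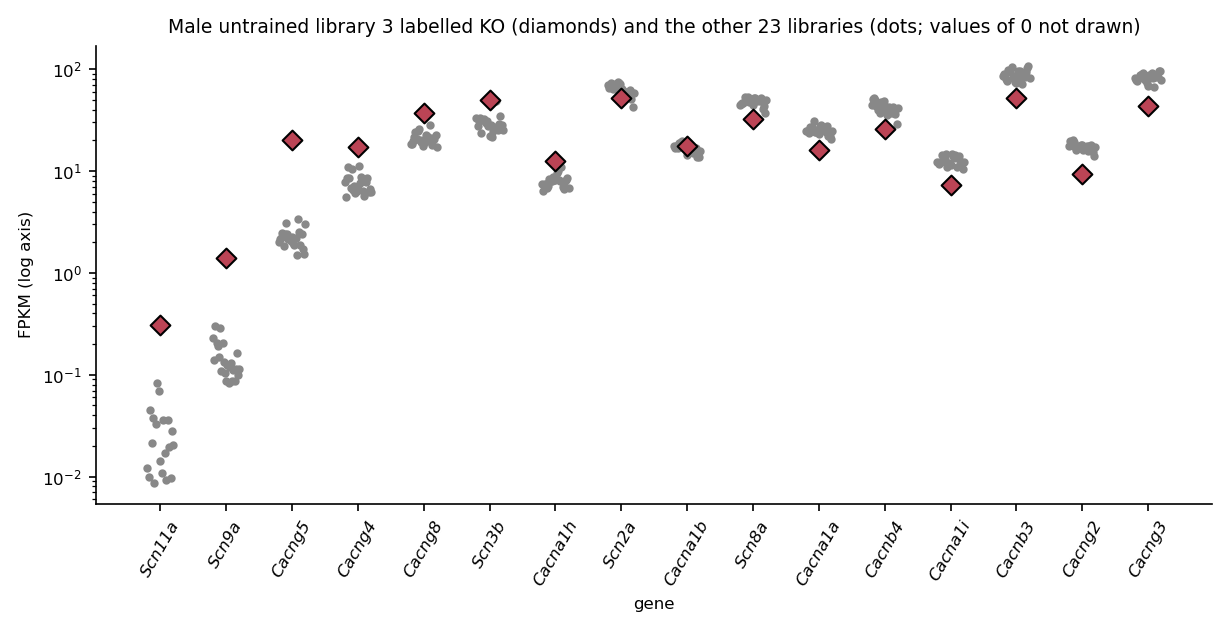
FPKM (log axis) of 16 channel genes in the male untrained KO-labelled library 3 (diamonds) and in the other 23 libraries (dots, values of 0 not drawn). Cacng5 (20.2 FPKM) and Scn9a (1.41 FPKM) lie far above the dots, Cacng2 (9.37 FPKM) and Cacng3 (43.3 FPKM) lie below them, and Scn2a and Cacna1b lie among them.

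A mean of at least 1 FPKM over the 24 libraries was required for testing, and 26 members passed, all of which also averaged over 1 FPKM in each arm. Among the 7 below it were Cacna1s and Cacng1, known from skeletal muscle; Scn7a, a sodium-sensing relative of the channels; and Scn9a, Scn10a and Scn11a, known from peripheral sensory neurons. Apart from the library that stood apart, none of them exceeded 1 FPKM in any library. Their highest value elsewhere was 0.986 FPKM, for Scn7a. Cacng1, Scn10a and Scn11a were at 0 in some libraries.

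Of the sodium pore genes, Scn2a and Scn8a are known as the main channels of excitatory axons in adult cortex, Scn1a as prominent in inhibitory neurons and Scn3a as mostly developmental. Over the 24 libraries Scn2a made up a mean 42.0% of the summed FPKM of the sodium pore genes, Scn8a 32.0%, Scn1a 20.8% and Scn3a 4.17%. Scn8a was at 49.1 ± 3.57 FPKM (SD, n = 8) in the WT-labelled arm, 46.8 ± 6.198 in the untrained KO-labelled arm and 46.5 ± 5.18 in the trained arm. Scn1a stood at 30.4 ± 3.46, 33.9 ± 7.41 and 29.3 ± 7.37 FPKM (SD, n = 8), and Scn3a at 6.64 ± 1.045, 5.995 ± 1.52 and 5.78 ± 0.581 FPKM (SD, n = 8), in that order of arms. The ranges of all 3 arms overlapped for each of these 3 genes.

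Scn2b, whose product is linked to the pore by a disulfide bond, was at 69.9 ± 4.41, 70.6 ± 7.70 and 75.2 ± 3.08 FPKM (SD, n = 8) in the WT-labelled, untrained KO-labelled and trained arms. With the arms in the same order, Scn3b was at 30.6 ± 3.27, 29.4 ± 9.03 and 30.6 ± 7.85 FPKM (SD, n = 8), and its highest untrained KO-labelled value, 50.04 FPKM, was that of the library that stood apart.

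Among the calcium pore genes, the Cav2 group was the most abundant. Cacna1a, which encodes the P/Q-type pore, and Cacna1e, which encodes the R-type pore, held 37.5% and 37.1% of the Cav2 sum, and Cacna1b, the N-type pore, 25.4%. The lowest, median and highest Cacna1a values were 23.9, 25.2 and 31.0 FPKM (WT-labelled), 16.3, 24.5 and 28.5 FPKM (untrained KO-labelled) and 20.8, 24.7 and 27.6 FPKM (trained), so the arms overlapped. The Cav2 sum was 71.2 ± 3.11, 67.2 ± 4.53 and 61.4 ± 5.94 FPKM (SD, n = 8) in the 3 arms. T-type sums were 35.3 ± 2.22, 34.6 ± 2.81 and 33.2 ± 1.90 FPKM (SD, n = 8), with Cacna1g at 39.8% of the sum, Cacna1i at 36.2% and Cacna1h at 23.97%. L-type sums were the lowest, at 16.8 ± 0.828, 15.6 ± 0.903 and 14.6 ± 1.46 FPKM (SD, n = 8), with Cacna1d at 54.0% and Cacna1c at 45.02%. Cacna1c itself was at 7.34 ± 0.436, 7.11 ± 0.210 and 6.67 ± 0.819 FPKM (SD, n = 8), and Cacna1i at 12.9 ± 1.09, 11.97 ± 2.29 and 12.5 ± 1.46 FPKM (SD, n = 8).

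Of the calcium beta genes, Cacnb3 held 47.7% of the sum, Cacnb4 22.6%, Cacnb1 22.5% and Cacnb2 7.23%. Cacnb3 ran from 77.2 over a median of 92.1 to 106 FPKM in the WT-labelled arm, from 52.1 over 83.5 to 96.3 FPKM in the untrained KO-labelled arm and from 71.2 over 86.9 to 107 FPKM in the trained arm. Cacnb1 was at 41.3 ± 2.71, 39.5 ± 4.07 and 42.1 ± 4.78 FPKM (SD, n = 8), and Cacnb2 at 12.8 ± 0.838, 13.4 ± 0.823 and 12.9 ± 0.529 FPKM (SD, n = 8). Both sets of ranges overlapped across the arms.

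Cacng7 was the highest of the Cacng genes, with lowest, median and highest values of 77.9, 88.1 and 117 FPKM in the WT-labelled arm, 81.0, 97.7 and 109.7 FPKM in the untrained KO-labelled arm and 79.5, 87.0 and 98.6 FPKM in the trained arm. Cacng3, a TARP of forebrain excitatory neurons, followed at 84.6 ± 5.65, 75.9 ± 15.1 and 84.4 ± 9.28 FPKM (SD, n = 8). Cacng8, the hippocampal and cortical TARP, stood at 21.7 ± 2.83, 22.2 ± 6.07 and 21.01 ± 3.46 FPKM (SD, n = 8), and Cacng2 (stargazin, the founding TARP) at 18.1 ± 1.48, 16.3 ± 2.89 and 16.5 ± 1.43 FPKM (SD, n = 8). Cacng4 was at 8.18 ± 1.90, 8.92 ± 3.81 and 6.99 ± 1.06 FPKM (SD, n = 8) and Cacng5 at 2.32 ± 0.377, 4.36 ± 6.42 and 2.24 ± 0.696 FPKM (SD, n = 8). The spread of Cacng5 in the untrained KO-labelled arm came from 1 library: its median there was 2.14 FPKM.

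The first comparison asked how the channel genes differed by genotype label in untrained animals. None of the 26 tested members passed an adjusted p of 0.05 (limma on log2(FPKM + 1) with sex as a covariate, Benjamini-Hochberg over 12572 genes), where 1.42% of all tested genes did. With an unadjusted p under 0.05 there were 1600 of all 12572 tested genes and 4 members: Cacna1h, Cacna1d, Cacna1g and Cacnb4. The limma-voom test on recovered reads also called none and gave 4 at that level. Of the 26 members, 17 had a lower mean log2 level in the KO-labelled arm, with a median difference of -0.083 against -0.0014 over all tested genes. Without the male untrained KO-labelled library 3, 19 were lower and the median difference was -0.062. With that library, among the 12 pore-forming genes 10 were lower, and among the 14 auxiliary genes 7 were.

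Cacna1h, a T-type calcium pore gene, had the smallest p of the members and the largest positive difference. Its lowest, median and highest values were 6.36, 7.47 and 8.32 FPKM in the WT-labelled arm and 7.99, 8.49 and 12.7 FPKM in the untrained KO-labelled arm. All 8 untrained KO-labelled libraries were above the mean of the WT-labelled ones, and 4 were above every one of them. The share of all tested genes with such counts is not given here. The log2 difference was 0.27 (SE 0.0707), with an adjusted p of 0.0827 by limma, which missed the threshold. Without the male library 3 that stood apart it was 0.21 (SE 0.0540), with an adjusted p of 0.0431 by limma, and Cacna1h was then the 1 member called. Without the male untrained KO-labelled library 4, the adjusted p was 0.0497 (limma). In the trained arm, Cacna1h was at 8.01 ± 1.37 FPKM (SD, n = 8), with 6.67, 7.96 and 10.9 FPKM as lowest, median and highest values.

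Cacna1h is the 1 member on the chromosome of Thbs2. It lies at chr17:25374285-25436334 (GRCm38), 10.7 Mb from Thbs2 (chr17:14665500-14694262). Of the 74 tested genes that start within 1 Mb of Cacna1h, 14 were called in this comparison, and on chromosome 17 as a whole 8.68% of 599 tested genes were. Thbs1 lies at chr2:118111876-118127133, and 8 members (6 tested) are on chromosome 2, where 4.40% of 999 tested genes were called. Scn3a, Scn2a, Scn1a, Scn9a and Scn7a form a cluster there between 51.3 and 52.5 Mb from Thbs1, with Cacnb4 at 65.4 Mb, Cacna1b at 93.3 Mb and Cacnb2 at 103 Mb. None of the 6 tested chromosome 2 members was called by genotype label. For genes near them, the genotype label and the DNA that flanks the targeted genes cannot be told apart in this design.

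Without the male library 3, the members with an unadjusted p under 0.05 numbered 10 in place of 4. The share of all tested genes at that level without this library is not given here. The rise is thus no result about the members. Beside Cacna1h they included Scn1a, with a log2 difference of 0.23 (SE 0.0741, adjusted p = 0.111 by limma), higher in the KO-labelled arm. Cacna1e was at -0.19 (SE 0.0673, adjusted p = 0.150 by limma) and Scn3b at -0.22 (SE 0.0795, adjusted p = 0.159 by limma) in that fit. None of these 3 passed.

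**Figure D2:**
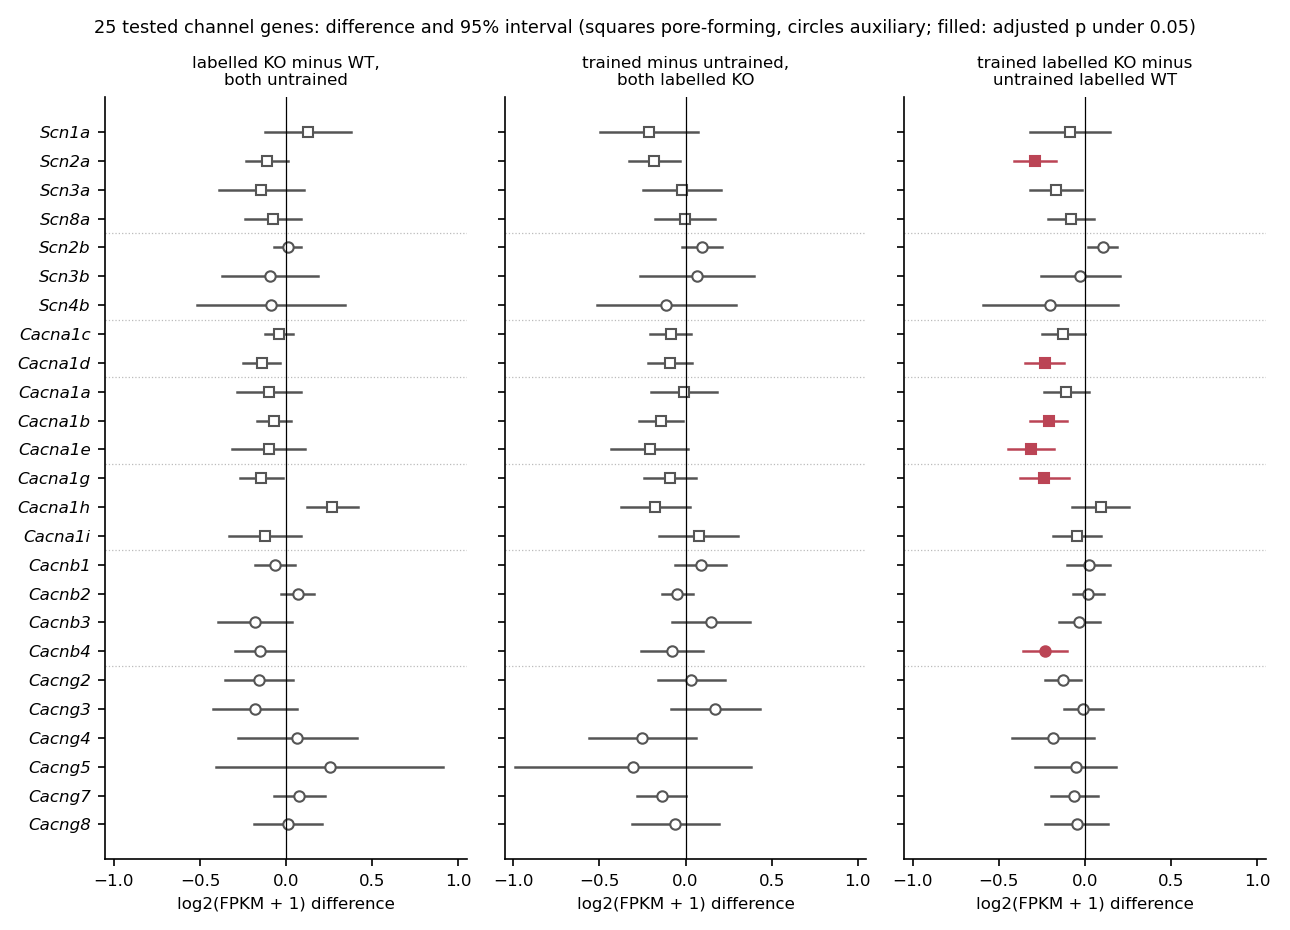
Difference in log2(FPKM + 1) (x axis) with its 95% interval for each of 25 tested members (y axis, grouped by subunit class) in the 3 comparisons of arms. No symbol is filled in the first and the second panel, and in the third 6 are filled (adjusted p under 0.05), all left of 0 and 5 of them squares, which mark pore-forming genes.

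The second comparison set trained against untrained KO-labelled animals. Again no member passed, against 5.67% of all tested genes. An unadjusted p under 0.05 by limma was found for 2989 of all 12572 tested genes and for 2 members (3 by limma-voom on recovered reads). The 2 members were Scn2a, at a log2 difference of -0.18 (SE 0.0696, adjusted p = 0.126 by limma), and Cacna1b, the N-type pore gene, at -0.14 (SE 0.0602, adjusted p = 0.164 by limma). Of the 26 members 18 were lower in the trained arm, with a median difference of -0.067 against 0.0065 over all tested genes. Of the 12 pore-forming genes 11 were lower, against 7 of the 14 auxiliary ones. With GC content and transcript length corrected within each library, 15 of the 26 were lower, with a median of -0.020 against 0.0019. All 8 trained but only 2 untrained KO-labelled animals have numbers over 1000. With a term for such numbers none was called, 20 were lower and 5 had an unadjusted p under 0.05 by limma (all-gene shares not given here). The median was then -0.15, against -0.0035 over all tested genes. In the main fit without the male untrained library 3, still none passed and 5 had an unadjusted p under 0.05 (all-gene share not given here). The smallest p was then that of Cacng7, at -0.18 (SE 0.0583, adjusted p = 0.0705 by limma).

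The third comparison set the trained KO-labelled arm against the untrained WT-labelled arm. It shares its libraries with the comparisons above and its arms differ in label, training and food deprivation together, so it is no independent evidence on any of them. Here 6 of the 26 members (23.1%) passed, against 24.5% of all tested genes, so the share called was near the background. All 6 were lower in the trained arm, where 11.5% of all tested genes were called lower. Of the 12 pore-forming genes 5 were called (41.7%), and of the 14 auxiliary genes 1 (7.14%). Over the members, 21 of 26 were lower and the median log2 difference was -0.084, against 0.0032 over all tested genes. Whether the members differ from other genes in this was not tested.

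Scn2a, which encodes a main sodium channel of excitatory axons, separated the trained from the WT-labelled libraries. Its lowest, median and highest values were 63.7, 68.7 and 72.6 FPKM in the WT-labelled arm, 52.8, 61.9 and 74.3 FPKM in the untrained KO-labelled arm and 42.2, 57.8 and 62.1 FPKM in the trained arm. All 8 trained libraries lay below every WT-labelled library, whereas the untrained KO-labelled libraries spanned both. The share of all tested genes that separate in this way is not given here. That holds too for the counts of libraries given below for the other called genes. The log2 difference was -0.29 (SE 0.0576, adjusted p = 0.00189 by limma). Without Scn2a, whose symbol in the table is an older one, 5 of 25 members were called.

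Cacna1e, the R-type calcium pore gene, ran from 22.9 over a median of 26.7 to 31.7 FPKM in the WT-labelled arm, from 20.1 over 25.1 to 36.5 FPKM in the untrained KO-labelled arm and from 16.8 over 22.3 to 26.4 FPKM in the trained arm. The highest untrained value, 36.5 FPKM, was that of the library that stood apart. Of the trained libraries 6 lay below every WT-labelled library, and all 8 below the WT-labelled mean. The log2 difference was -0.31 (SE 0.0641, adjusted p = 0.00241 by limma), the most negative of the members.

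Cacna1b, whose N-type channel triggers release at presynaptic terminals, had lowest, median and highest values of 16.7, 17.7 and 19.6 FPKM (WT-labelled), 14.3, 17.5 and 19.5 FPKM (untrained KO-labelled) and 13.6, 15.8 and 16.9 FPKM (trained). Again 6 trained libraries lay below every WT-labelled library. The log2 difference was -0.21 (SE 0.0508, adjusted p = 0.00692 by limma).

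Cacna1d, the L-type pore gene whose channel opens at the more negative voltages, had values of 8.52, 9.22 and 10.1 FPKM (WT-labelled), 7.02, 8.52 and 9.79 FPKM (untrained KO-labelled) and 6.54, 7.65 and 8.86 FPKM (trained) as lowest, median and highest. In the trained arm 6 libraries were below every WT-labelled one, and the log2 difference was -0.23 (SE 0.0533, adjusted p = 0.00481 by limma). The other L-type gene of cortex, Cacna1c, was at -0.13 (SE 0.0596, adjusted p = 0.129 by limma) and did not pass.

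Cacna1g, the most abundant T-type pore gene, ran from 13.5 over a median of 15.02 to 17.4 FPKM in the WT-labelled arm, from 11.2 over 13.7 to 15.1 FPKM in the untrained KO-labelled arm and from 9.71 over 13.3 to 14.3 FPKM in the trained arm. 7 trained libraries were below every WT-labelled one, and the log2 difference was -0.23 (SE 0.0676, adjusted p = 0.0176 by limma). Its paralogue Cacna1h was at 0.091 (SE 0.0782, adjusted p = 0.412 by limma).

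Cacnb4, a calcium beta subunit gene and the 1 auxiliary member called, had lowest, median and highest values of 37.3, 43.8 and 51.7 FPKM (WT-labelled), 25.9, 41.2 and 48.8 FPKM (untrained KO-labelled) and 28.7, 38.2 and 42.3 FPKM (trained). The arms overlapped more than for the other called genes, with 4 trained libraries below every WT-labelled one. The log2 difference was -0.23 (SE 0.0605, adjusted p = 0.0107 by limma). The other 3 calcium beta genes lay between -0.031 and 0.022.

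The sodium beta gene Scn2b was at 0.10 (SE 0.0400, adjusted p = 0.0639 by limma) and did not pass. All 6 tested Cacng genes were lower in the trained arm, from -0.19 to -0.0086, and none passed.

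**Figure D3:**
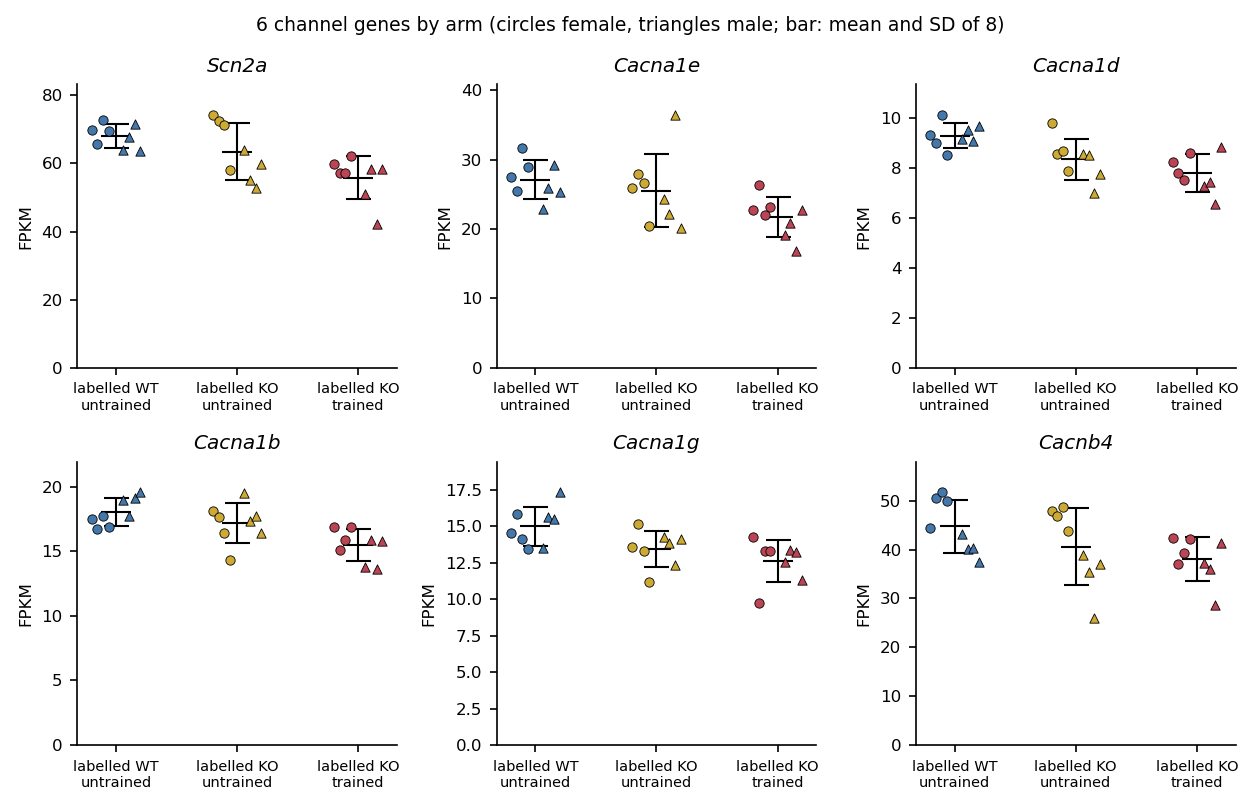
FPKM (y axis, from 0) of the 6 members called in the third comparison, in each library of the 3 arms (x axis), with the mean and SD of 8. The trained values of Scn2a (42.2 to 62.1 FPKM) all lie below the WT-labelled ones (63.7 to 72.6 FPKM), and those of the other 5 genes overlap them in part.

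Animal number went along with this comparison too. All 8 trained animals have numbers over 1000, against 1 WT-labelled male. With a term for numbers over 1000 no member was called and 5 had an unadjusted p under 0.05 by limma. Shares of all tested genes in that fit are not given here, so the lost calls are no result about the members. Scn2a was then at -0.26 (adjusted p = 0.538 by limma), Cacnb4 at -0.31 (adjusted p = 0.465), Cacna1b at -0.29 (adjusted p = 0.406), Cacna1d at -0.23 (adjusted p = 0.550), Cacna1e at -0.16 (adjusted p = 0.734) and Cacna1g at -0.065 (adjusted p = 0.928). The number thus cannot be told apart from training among the females, and among the males that term rests on the 1 WT-labelled animal. In that animal Scn2a was at 63.8 FPKM, Cacna1e at 22.9, Cacna1g at 13.5, Cacna1b at 19.0, Cacna1d at 9.14 and Cacnb4 at 43.1 FPKM, the first 3 near or at the low end of their arm.

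The 6 called genes were longer on average than the other members, with overlapping ranges. Their RefSeq spans had a median of 203.8 kb, against 62.2 kb in the other 20 tested members and 24.8 kb in all tested genes. The median GC content of their transcripts was 48.9%, against 54.5% and 49.8%. With GC content and transcript length corrected within each library, the 6 genes were called again with smaller differences, from -0.25 (Cacna1e, adjusted p = 0.00132 by limma) to -0.14 (Cacnb4, adjusted p = 0.0130 by limma), and Scn2a was at -0.18 (adjusted p = 0.00165 by limma). In that fit 9 members were called, 7 lower and 2 higher, against 27.9% of all tested genes. The further ones included Cacng2, lower at -0.13 (adjusted p = 0.0286 by limma), and Scn2b, higher at 0.084 (adjusted p = 0.0485 by limma).

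Promoter sequence is shown for the called genes whose stretch from 250 to 50 bases before the RefSeq start (GRCm38.p6) lies outside the annotated gene, to show how unlike the upstream DNA of genes called together was. These are Scn2a (chr2:65620519-65620718, plus strand) and Cacna1b (chr2:24763203-24763402, minus strand), written 5′ to 3′ along the gene, with the GC box GGGCGG or its complement CCGCCC in capitals.
Scn2a: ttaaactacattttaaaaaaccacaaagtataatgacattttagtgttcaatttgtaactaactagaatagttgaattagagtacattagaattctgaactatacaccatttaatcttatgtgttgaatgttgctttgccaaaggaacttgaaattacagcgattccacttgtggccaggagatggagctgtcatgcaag
Cacna1b: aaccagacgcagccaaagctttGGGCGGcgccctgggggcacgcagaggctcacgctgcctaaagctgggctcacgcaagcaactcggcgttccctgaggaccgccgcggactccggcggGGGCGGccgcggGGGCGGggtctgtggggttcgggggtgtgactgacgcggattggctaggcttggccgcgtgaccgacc
The Scn2a stretch has a GC content of 32.5% and no GC box, and the Cacna1b stretch 71.5% and 3. Of the 33 members 24 had a window in RefSeq, and 5 of them held a GC box on either strand, against 24.6% of all 32851 windows of 200 bases. The cyclic-AMP response element TGACGTCA and the E-box CACGTG, searched on both strands, were in none of the 24, against 0.828% and 4.34% of all windows, and TATAAA was in 1, against 9.14%. A match or its absence describes these letters in this window.

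Genes whose proteins work with the channels were counted from a separate list of 41, of which 40 were in the table and 36 were tested. None was called by genotype label (3 at an unadjusted p under 0.05 by limma). By training 1 was called: Fgf14, an intracellular FGF that binds sodium channels at the axon initial segment, was lower in trained KO-labelled animals by a log2 difference of -0.21 (SE 0.0592, adjusted p = 0.0432 by limma). That is 2.78% of the 36, against 5.67% of all tested genes. In the third comparison 10 were called (27.8%), 2 higher and 8 lower, against 24.5% of all tested genes, so this share too was near the background. The lower ones included Cacna2d1, the alpha2delta subunit that binds gabapentin, at 39.6 ± 3.32 FPKM in the WT-labelled and 32.9 ± 2.51 FPKM in the trained arm (SD, n = 8; log2 difference -0.26, adjusted p = 0.00229 by limma). Fgf14 was at -0.26 and its relatives Fgf13 and Fgf12 at -0.18 and -0.15. Cntn1, an axonal adhesion molecule, was at -0.19, Nalcn, the sodium leak channel, at -0.20, Cacna2d2 at -0.16 and Ank3, which anchors sodium channels at the initial segment, at -0.19 (adjusted p = 0.0497 by limma). The higher ones were Gem, a small GTPase that inhibits calcium channels, at 0.38 (1.06 ± 0.339 against 1.67 ± 0.364 FPKM; SD, n = 8), and Stac2, a calcium channel adaptor, at 0.24.

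Marker genes of cell types were read beside these results. Of 45 tested marker genes of 10 lists, none was called in the first comparison (4 at an unadjusted p under 0.05 by limma) or the second (9). In the third, 11 were called (24.4%), near the 24.5% of all tested genes. They were 1 of 6 neuronal markers (Syt1, lower), 2 of 4 for parvalbumin interneurons (Kcnc1 and Pvalb, in opposite directions), 1 of 5 for astrocytes (Slc1a3, lower), both tested markers of oligodendrocyte precursors (Cspg4 and Pdgfra, lower), 3 of 4 for microglia (1 higher and 2 lower) and 2 of 7 for cortical neurons (both higher, Neurod6 among them), and none for oligodendrocytes, endothelial and mural cells, striatum or septum. The mean log2(FPKM + 1) of the 6 neuronal markers ran from 7.76 to 7.96 in the WT-labelled arm, from 7.81 to 7.94 in the untrained KO-labelled arm and from 7.73 to 7.85 in the trained arm. For oligodendrocyte precursors it ran from 2.39 to 2.91, from 2.46 to 2.93 and from 2.30 to 2.58. The 2.93 was that of the male untrained KO-labelled library 3, without which that arm reached 2.79. In that library the oligodendrocyte mean was 6.21, against 6.67 to 7.55 in the other 23. Its parvalbumin interneuron mean was 5.67 against 5.12 to 5.50. Its neuronal, astrocyte, microglial and endothelial and mural means lay inside the range of the others. No marker gene in the table was at 0 in any library, and the part of cell composition in the channel differences was not tested.

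Scn4b, a beta subunit that supports resurgent sodium current and is abundant in striatum, and Cacng4, a TARP also used as a mark of oligodendrocyte precursors, varied among libraries more than between arms. Scn4b ran from 22.02 over a median of 36.9 to 66.9 FPKM in the WT-labelled arm, from 24.3 over 38.7 to 63.7 FPKM in the untrained KO-labelled arm and from 21.9 over 38.3 to 47.7 FPKM in the trained arm. The mean log2(FPKM + 1) of 7 striatal markers was above 4 in 6 libraries, 3 WT-labelled, 2 untrained KO-labelled and 1 trained. In these 6 Scn4b was between 44.7 and 66.9 FPKM and Cacng4 between 8.54 and 17.4 FPKM. In the other 18, with striatal means of 2.497 to 3.57, Scn4b was between 21.9 and 46.1 FPKM and Cacng4 between 5.56 and 8.66 FPKM. In the library with the highest striatal mean, 5.65, Scn4b was at 44.7 FPKM, the lowest of the 6, and Cacng4 at 17.4 FPKM, the highest. The part of striatal tissue in Scn4b was not tested.

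**Figure D4:**
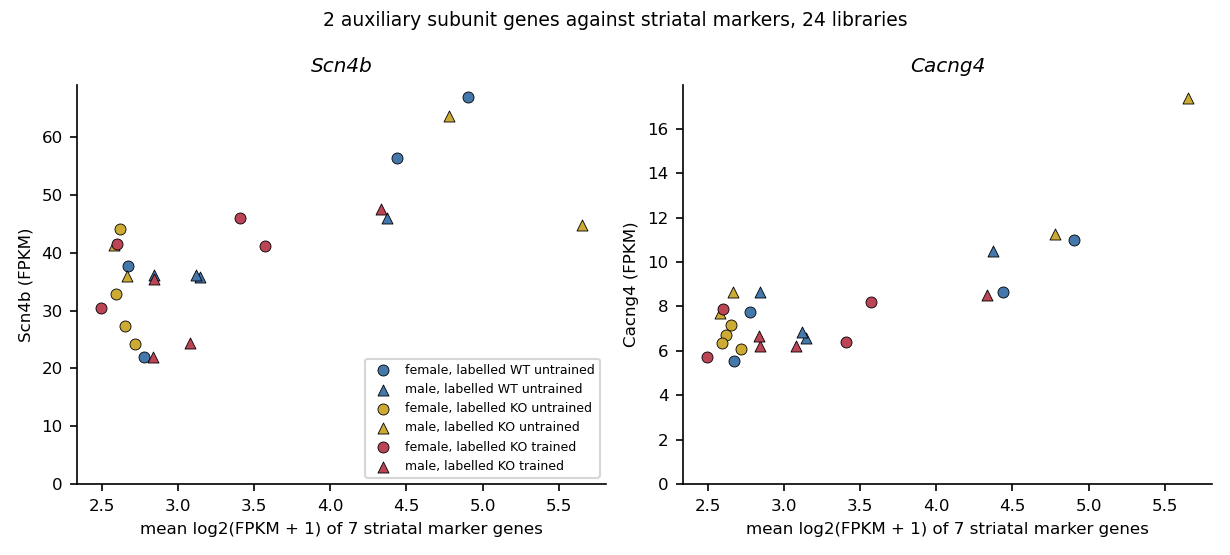
Scn4b (left) and Cacng4 (right) in FPKM (y axis) against the mean log2(FPKM + 1) of 7 striatal marker genes (x axis) in the 24 libraries. The 6 libraries above 4 on the x axis have Scn4b between 44.7 and 66.9 FPKM, and the other 18 have 21.9 to 46.1 FPKM.

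Males were compared with females over the 24 libraries, with a term for the arm. Here 5 of the 26 members (19.2%) passed, against 28.6% of all tested genes. Cacnb4 was lower in males by a log2 difference of -0.30 (SE 0.0611, adjusted p = 0.00118 by limma): among the WT-labelled libraries it was between 44.5 and 51.7 FPKM in females and between 37.3 and 43.1 FPKM in males. Scn1a was lower in males at -0.33 (adjusted p = 0.0212 by limma), Scn2a at -0.16 (adjusted p = 0.0230) and Cacng2 at -0.18 (adjusted p = 0.0440; -0.12 with an adjusted p of 0.0154 without the male untrained KO-labelled library 3), and Scn2b was higher in males at 0.12 (adjusted p = 0.0260). Cacng2 lost its call in 14 of the 24 fits that left out 1 library. Of the 45 markers, 5 (11.1%, below the 28.6% of all tested genes) were called by sex (Aqp4, C1qa, Cspg4, P2ry12 and Tmem119), and their part in the channel differences was not tested. With GC content and transcript length corrected within each library, 5.11% of all tested genes were called by sex and none of these 5 members was; Cacnb2 was then the 1 member called. Cacng2 and Scn2b lost their calls at differences near those above, -0.19 (adjusted p = 0.0898 by limma) and 0.10 (adjusted p = 0.0814). Those of Cacnb4 and Scn1a shrank to -0.11 (adjusted p = 0.194 by limma) and -0.19 (adjusted p = 0.293), and Scn2a was at 0.0031 (adjusted p = 0.976), with its sign turned. In the main fit without the male untrained KO-labelled library 3, 9 members passed. Among them were Cacnb3 at 0.24 (adjusted p = 0.000523 by limma) and Cacng3 at 0.17 (adjusted p = 0.00375), both higher in males. The share of all tested genes called in that fit is not given here, so the 9 are no result about the members as a set.

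The difference by genotype label was also tested for a difference between the sexes. No member and no gene passed (0% of 12572), and 1 member, Cacng4, had an unadjusted p under 0.05 by limma (394 genes in all, and no member by limma-voom). Without the male untrained KO-labelled library 3 no member had such a p, and that of Cacng4 was 0.0934. For the difference by training, no member passed against 0.00795% of all genes. An unadjusted p under 0.05 was found for 3 members by limma (1952 genes in all) and 3 by limma-voom. Of these Scn2b had the smallest p: it was at 64.3 ± 3.66 FPKM in untrained and 76.7 ± 3.30 FPKM in trained KO-labelled females (SD, n = 4), and at 76.9 ± 4.49 and 73.6 ± 2.18 FPKM in males (SD, n = 4). The difference of the log2 differences, males minus females, was -0.31 (SE 0.0795, adjusted p = 0.0977 by limma). Scn2b was picked by this p, and the share of all tested genes with female ranges apart is not given here. All 4 untrained KO-labelled females (58.97 to 67.2 FPKM) lay below all 4 trained ones (73.2 to 80.8 FPKM), while the male ranges overlapped. These untrained females all have animal numbers under 1000 and the trained ones all over 1000, whereas 2 of the untrained KO-labelled males are over 1000. Training and animal number thus cannot be told apart in the females. Scn4b and Cacng4 were at -0.86 and -0.66 on the same measure (adjusted p = 0.237 each by limma). Without the male library 3, 8 members had an unadjusted p under 0.05 and Cacng4 was at -0.44 (adjusted p = 0.190 by limma). Cacna1a was then called at -0.40 (SE 0.0826, adjusted p = 0.0359 by limma). Shares of all tested genes in that fit are not given here.

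**Figure D5:**
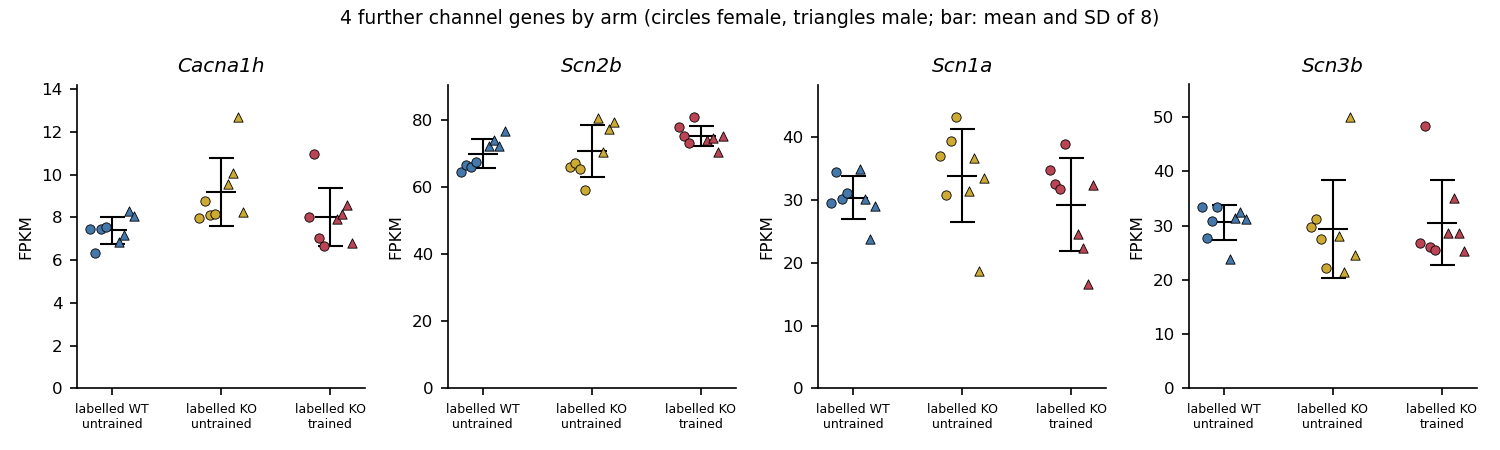
FPKM (y axis, from 0) of Cacna1h, Scn2b, Scn1a and Scn3b in each library of the 3 arms (x axis; circles female, triangles male), with the mean and SD of 8. Untrained KO-labelled females have Scn2b of 58.97 to 67.2 FPKM against 73.2 to 80.8 FPKM in trained females, and the Cacna1h value of 12.7 FPKM and the Scn3b value of 50.04 FPKM belong to the library that stood apart.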

How the data were processed

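Bulk RNA-seq of 24 mouse anterior cingulate cortex libraries was read from 1 deposited table of FPKM, which the authors computed for 15232 genes. How they were computed, the annotation and the gene filter are not given in the sources used here. A stranded mRNA kit was used, per the labels' protocols. Per the submitters' processing notes, FastQC 0.11.7, Trimmomatic 0.38, STAR 2.5.3a and featureCounts of Subread 1.6.3 were used with build mm10 (GRCm38). Columns were matched by the animal numbers in the labels. Replicates are separate animals.

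The values log2(FPKM + 1) of each comparison entered limma 3.58.1 (R 4.3.3; eBayes with trend, 2-sided), Benjamini-Hochberg adjusted over the 12572 genes with mean FPKM of at least 1, threshold 0.05. Only the compared arms entered, with sex as a covariate; the male against female fit used all libraries and a term for arm. Log2 differences understate the change of low genes. On simulated data the fit called 198 of 200 genes changed 2-fold for genotype label (12603 genes), 193 for training (12599) and 195 for the third comparison (12601), with 9, 15 and 10 other calls. The simulated noise was independent and had the spread of the WT-labelled arm. A 2-fold change is larger than any member's log2 difference between arms, which ran from -0.31 to 0.27. How many changes of that size would be called was not tested. Whole reads were recovered from the FPKM steps for 15217 genes (99.998% of values whole within 0.01 read), and summed reads stand for depth; they cover counting error only. Fitted with voom, these reads gave the count alternative. Positions, spans and promoters are from RefSeq GRCm38.p6, and GC content is from GENCODE M21 transcripts (99.4% of tested genes). Python 3.11.15, numpy 2.4.6, pandas 2.3.3 and matplotlib 3.10.9 were used.

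Members and lists were chosen with earlier results of these data known. All members are given by arm means or ranges, with lowest, median and highest values for those called in a comparison of arms and for the highest of most classes, and the results of some members and markers are not reported here although they stay in the counts; Cacna1h, Scn4b and the members that stood apart in 1 library were chosen after their values were seen. Alternatives tried were array weights, a threshold of 0.1, a pseudocount of 0.1, a minimum mean of 5 FPKM or none, median-ratio, equal-sum and quantile scaling, eBayes without trend, 1 fit of all 24 libraries, leaving sex out, a replicate block, GC and length correction in 20 bins, voom, an animal-number term and each library left out. Splits by animal number (under or over 1000) were added after seeing the data. Same-numbered libraries of different arms did not deviate together (mean correlation 0.025 for genotype label, -0.070 for training and -0.10 for the third comparison), so the numbers were not taken as pairs.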

Additional observations from a re-analysis of the deposited data

Results flagged for a closer look

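The values of most members were compared with the others of their arm of 8, and so were the septal, striatal and cortical marker means. Of 102 such tests 18 values stood apart by a gap that chance gives in about 1 in 20 groups, or 5.1 of 102. The tests share libraries, and the septal and striatal lists were written with earlier results of these data known. The 5.1 is thus no measure of chance for the 18.

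The male untrained KO-labelled library 3 held 13 of the 18. It stood high in its arm for Scn9a (1.41 FPKM), Scn11a (0.310 FPKM), Scn3b (50.04 FPKM), Cacna1h (12.7 FPKM), Cacng4 (17.4 FPKM), Cacng5 (20.2 FPKM) and Cacng8 (36.8 FPKM). It stood low for Scn8a (32.5 FPKM), Cacna1a (16.3 FPKM), Cacng2 (9.37 FPKM) and Cacng3 (43.3 FPKM). Its septal marker mean was high at 3.69 and its cortical marker mean low at 3.37, both as log2(FPKM + 1).

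The other 5 were in the trained arm. The female trained library 2 stood high for Cacna1h (10.9 FPKM), Cacng8 (28.5 FPKM) and Scn3b (48.4 FPKM), and its septal marker mean was 1.55. These 3 genes were also high in the male untrained library 3. The male trained library 3 stood low for Cacnb4 (28.7 FPKM).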

How the results depend on the processing

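By genotype label, the count of members called was 0 and became 1 at a threshold of 0.1, 1 with array weights and 0 to 1 with 1 library left out; that member was Cacna1h each time. By training it was 0 and became 1 with array weights (Scn2a). The 6 members called between the trained KO-labelled and the WT-labelled arm became 10 at a threshold of 0.1, 9 with GC and length correction (7 lower and 2 higher) and 0 with the animal-number term, and were 6 to 8 with 1 library left out, where the 6 calls were kept in all 16 fits. With a replicate block the number was 4: Cacnb4 (adjusted p = 0.0608, limma) and Cacna1g (adjusted p = 0.0504, limma) were lost. The replicate block gave 0 members in the other comparisons of arms. By sex the 5 calls became 10 with array weights, 1 with GC and length correction, 3 with the animal-number term, 3 among animals numbered under 1000 (added after seeing the data), and 4 to 9 with 1 library left out; Scn2a by sex turned to 0.0031 with GC and length correction. For training by sex, 0 became 1 with all 24 libraries in one fit, 1 at a threshold of 0.1, 4 with array weights and 0 to 1 with 1 library left out. Except where the threshold itself was changed, the cause was not tested. Shares of all tested genes are given only for the main fit and for GC and length correction. Counts from the other fits have no such share beside them and describe the members alone. Of 403 refits of single genes over 12 results, 364 kept their direction and side of the threshold, 34 lost the call, 4 gained it and 1 turned its sign. Depth limits the low members: Scn11a and Cacng1 had medians of 2 and 1 reads per library, against 9082.5 for Scn2a.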
